A study of Rattus norvegicus with 11 samples.

Results

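Slc11a1 (ENSRNOG00000014956) and Cd14 (ENSRNOG00000017819), 2 genes of 32883 in the counts, were followed in the colliculi, inferior and superior (corpora quadrigemina), taken from 11 male rats aged 4 months, each sequenced as its own poly(A)-enriched library. The pair was selected on measured values of these same rats, the differences between strains, and above all KM vs W. Their levels and fold changes are therefore given as a description, without a test. KM rats (n = 3) belong to the inbred Krushinsky-Molodkina strain, which was derived from Wistar rats and responds to loud sound with audiogenic epilepsy (AE). Rats of the “0” strain (n = 4) descend from hybrids of KM with Wistar and were selected for the absence of AE. Seizures still occur in this strain, but the study states that the “0” rats it used gave no response to sound. The W rats (n = 4) are outbred Wistar animals, and those that started a wild run in response to the bell were not used. At an age of 3 months KM rats had been tested with sound once and “0” rats 3 times. All 3 groups heard the bell 4 days before the tissue was taken. The sample labels give Wistar as the strain of all rats and separate them by proneness to AE.

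Slc11a1, also known as Nramp1, encodes a proton-coupled transporter of the phagosome membrane that moves iron and manganese out of the compartment in which macrophages hold engulfed microbes. Cd14 encodes the surface co-receptor that passes bacterial lipopolysaccharide to Tlr4 and Ly96, from which Myd88, the IkB kinases and NF-kB carry the signal to inflammatory genes. Both are classical genes of the myeloid line, which in the brain comprises microglia, the macrophages of vessels and meninges, and the blood cells that remain in the vessels of the tissue. In whole tissue, fewer cells of one type and less RNA per cell cannot be told apart.

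The RefSeq promoter of Cd14 is shown because the level of this gene differed between strains, and it spans 250 bases before and 50 after the start on chr18:28611109-28611408 of GRCr8, minus strand. No promoter of Slc11a1 was at hand.
Cd14: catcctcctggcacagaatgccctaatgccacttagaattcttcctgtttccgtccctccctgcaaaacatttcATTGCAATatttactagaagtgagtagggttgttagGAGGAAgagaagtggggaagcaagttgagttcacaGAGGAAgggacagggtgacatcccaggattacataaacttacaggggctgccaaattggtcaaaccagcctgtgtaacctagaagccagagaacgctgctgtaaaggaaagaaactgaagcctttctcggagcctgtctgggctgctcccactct
The capitals mark ATTGCAAT, which reads the half-site ATTGC of C/EBP factors on either strand, and GAGGAA, which holds the GGAA core of Ets factors such as PU.1. These letters were chosen after the sequence was seen and were searched on both strands, without overlap between them. ATTGCAAT begins 176 bases before the start and occurs in 0.242% of the 33469 promoters of this length, while GAGGAA begins 140 and 105 bases before the start and occurs in 27.6%. Such a match describes letters only, and binding was not measured.

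The reads that fell on genes numbered 10545964 to 15140180 per rat, and 3 counts, the smallest amount taken as detectable, corresponded to 0.198 to 0.284 CPM (the usual scaling of a gene's count to the total of reads that fell on genes). Genes that averaged 1 CPM or more were compared by the quasi-likelihood test of edgeR with TMM scaling, which corrects for differences in library composition, and were called at an unadjusted p under 0.05. At that threshold the share of genes called was 10.9% between KM and W, 3.65% between KM and “0”, and 6.69% between “0” and W. The library of KM 3 stood apart by 7 choroid plexus genes, whose summed level was 9060 CPM against 157 to 285 CPM in the other rats, and the values of KM that it moved most are given with and without this rat.

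Slc11a1 was well detected in W rats and close to the limit of detection in KM rats and in the “0” strain. Its level was 3.40, 3.08, 3.79 and 2.33 CPM in the 4 W rats, from 42, 39, 45 and 27 counts. In the KM rats it was 0.682, 0.346 and 0 CPM, from 8, 4 and 0 counts. In the “0” rats it was 0.0770, 0.284, 0 and 0.294 CPM, from 1, 3, 0 and 4 counts. Each of the 7 KM and “0” rats thus lay below each of the 4 W rats, whereas KM and “0” rats overlapped. Among these 7 rats, only KM 1, KM 2 and “0” 4 had more than 3 counts. Taking 3 counts as the most that a count of 0 allows, the level was up to 0.198 CPM in KM 3 and up to 0.269 CPM in “0” 3, and the upper limits of the 95% Poisson intervals were 0.244 and 0.331 CPM.

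The mean level of Slc11a1 was 3.15 ± 0.619 CPM (SD, n = 4) in W, 0.343 ± 0.341 CPM (SD, n = 3) in KM and 0.164 ± 0.148 CPM (SD, n = 4) in “0” rats. The fitted log2-fold change of KM against W was −3.33 (SE 0.70), a 10.0-fold lower level in KM rats, and 7 of the 13721 genes tested, Slc11a1 included, had a change at least as far below 0. The fitted log2-fold change of “0” against W was −4.19 (SE 0.48), an 18.3-fold lower level, which 8 of 13630 genes reached. In both comparisons Slc11a1 passed the filter of 1 CPM only through the W rats, so these ranks are description. From pooled reads, 153 counts in W stood against 12 in KM, a ratio of 10.1 per read assigned to genes (95% interval 5.62 to 20.0), and against 8 in “0”, a ratio of 19.1 (9.43 to 44.9). These intervals cover counting error only. Between KM and “0” no fit was made, because the mean level was below 1 CPM, and the pooled ratio of KM to “0” was 1.89 with an interval from 0.709 to 5.32.

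Since every W rat lay above every KM and “0” rat, leaving out 1 rat could move the size of the Slc11a1 difference but not its direction. The log2-fold change in KM vs W ranged from −4.37 without KM 1 to −2.64 without KM 3, and in “0” vs W from −4.56 to −3.88. Among the KM rats the counts spread more widely than counting error alone would give, with a variance ratio (chi-square per degree of freedom) of 4.95, against 1.57 in “0” and 1.43 in W rats.

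Cd14 had the opposite order, with the lowest levels in W rats. Its level was 2.02, 2.13, 2.78 and 2.33 CPM in the W rats, from 25 to 33 counts. In the KM rats it was 3.67, 4.67 and 7.73 CPM, from 43, 54 and 117 counts. In the “0” rats it was 5.31, 3.89, 5.03 and 5.95 CPM, from 41 to 81 counts. Every KM rat and every “0” rat lay above every W rat, and the KM and “0” ranges overlapped.

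The mean level of Cd14 was 2.32 ± 0.336 CPM (SD, n = 4) in W, 5.36 ± 2.12 CPM (SD, n = 3) in KM and 5.04 ± 0.861 CPM (SD, n = 4) in “0” rats. The fitted difference from W was of like size in both selected strains, with a log2-fold change of 1.09 (SE 0.29), or 2.13-fold, in KM and of 1.13 (SE 0.23), or 2.19-fold, in “0” rats. Between KM and “0” the log2-fold change was −0.05 (SE 0.29), smaller than its error. Cd14 included, changes at least as far above 0 were found for 158 of 13721 genes in KM vs W and 55 of 13630 in “0” vs W. The highest Cd14 level was that of KM 3. Without KM 3 the log2-fold change was 0.79 against W and −0.33 against “0”. Counts of Cd14 among the KM rats had a variance ratio of 10.98, against 1.69 in “0” and 0.591 in W rats.

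**Figure D1:**
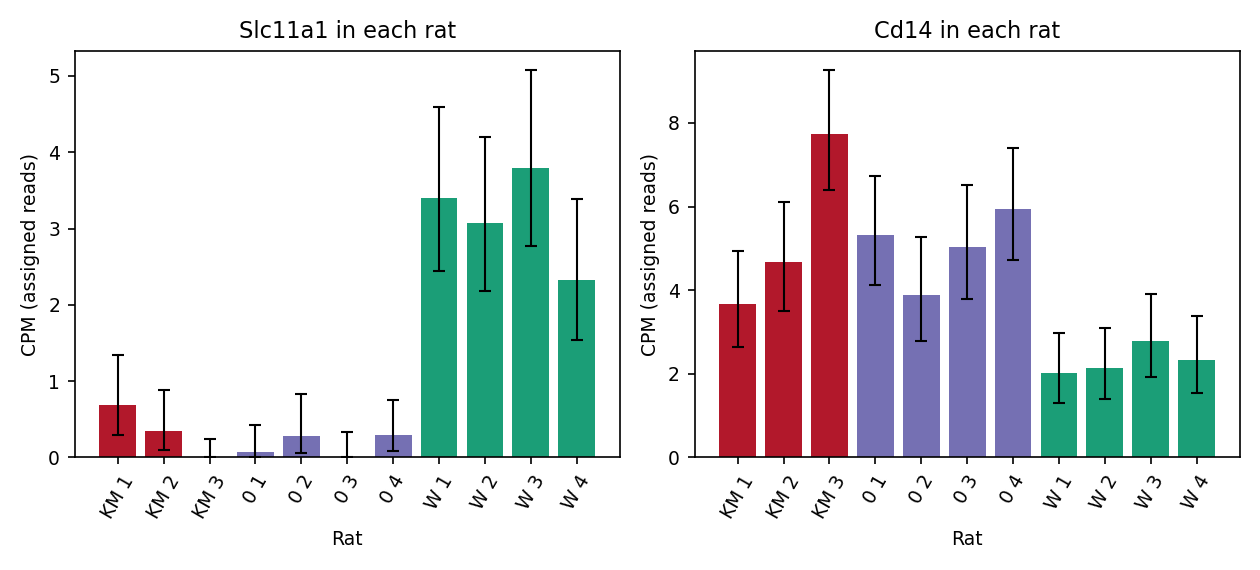
Level of Slc11a1 (left) and Cd14 (right) in each of the 11 rats, as CPM on a linear axis, with bars coloured by strain and lines giving the exact 95% Poisson interval of the count. Slc11a1 lies between 2.33 and 3.79 CPM in W rats and at or below 0.682 CPM in all others, and Cd14 between 2.02 and 2.78 CPM in W rats and at or above 3.67 CPM in all others.

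The separation was read against all genes after TMM scaling. Every KM rat lay below every W rat in 6.52% of genes and above in 5.12%, and every “0” rat lay below every W rat in 1.99% and above in 2.33%. All KM and “0” rats lay below all W rats, as for Slc11a1, in 0.876% of 13694 genes and above, as for Cd14, in 1.02%. Without TMM scaling 23.5% of the genes that separated KM from W were lower in KM, against 56.0% with it, so the split of other genes depends on scaling, whereas Slc11a1 and Cd14 separated the same rats on both scales. The lowest W rat had 3.92 times the TMM-scaled Slc11a1 level of the highest KM or “0” rat. Among the 13694 genes compared, no other gene that was lower in all of these rats had a gap as large. Genes with a mean below 1 CPM over the 11 rats were not compared, and Slc11a1 reached that mean only through the W rats. For Cd14 the lowest KM or “0” rat had 1.23 times the level of the highest W rat, a gap that 26 genes, Cd14 included, reached. Both genes were selected for their strain differences, so these ranks add no support.

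Within single libraries the pair can be set against each other without any scaling. Per 100 reads of Cd14, W rats had 168, 144, 136 and 100 reads of Slc11a1. The KM rats had 18.6, 7.41 and 0, and the “0” rats 1.45, 7.32, 0 and 4.94. The separation of W rats in this ratio follows from the levels already given and adds no further support. Since transcript lengths were not at hand, the ratio compares rats and does not give the relative number of molecules of the pair.

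**Figure D2:**
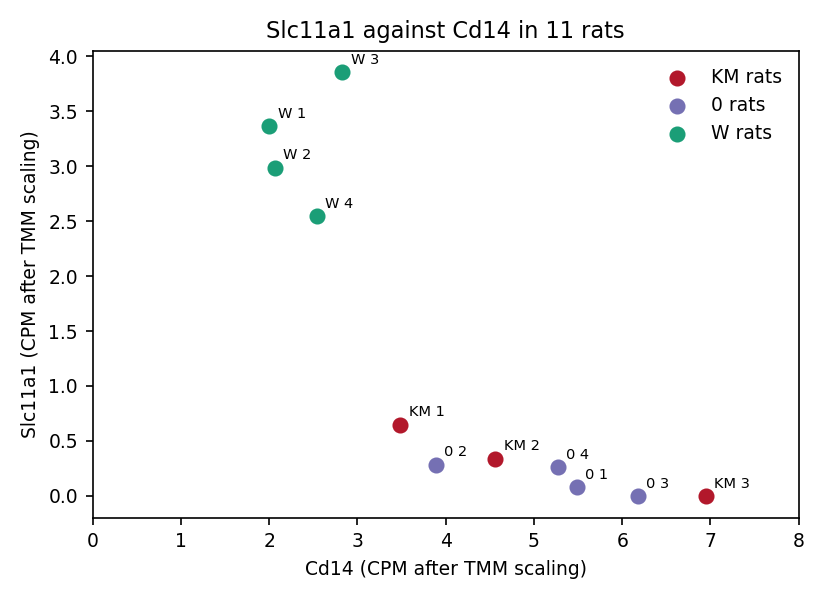
TMM-scaled CPM of Cd14 (horizontal axis) and Slc11a1 (vertical axis), with one point for each of the 11 rats, coloured by strain and named. The 4 W rats sit at the upper left, with Slc11a1 between 2.54 and 3.86, and the KM and “0” rats lie mixed along the bottom, with Slc11a1 at or below 0.648 and Cd14 at or above 3.48.

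A compensation coefficient, defined as in the methods of the work, gives how far the “0” strain had returned to the Wistar level. It is 0% when the mean log2 CPM of “0” rats equals that of KM and 100% when it equals that of W. The coefficient was −15.2% for Slc11a1, with values from −43.4% to 4.84% for single “0” rats, and −9.40% for Cd14, with values from −35.5% to 29.7%. KM 3 and “0” 3, each with 0 counts of Slc11a1, both had a log2 CPM of −2.63. That value is set by the offset in the log2 CPM (a prior count of 2), and in “0” 3 it gives the −43.4%. On this log2 scale the “0” mean of both genes lay on the far side of KM from W, but on the CPM scale the Cd14 mean of “0” rats lay between those of KM and W. Without KM 1 the fitted Cd14 change of KM against “0” was 0.15, so the order of these strains turned. KM and W rats enter both coefficients.

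The genes around this pair were described from lists of pathway and marker genes, of which only those with a symbol in the supplementary gene table of the study could be found. The table names 1763 of the 32883 genes, nearly all of them listed for a strain difference in these rats, so the shares called below are not independent evidence. Tlr4, Ly96, Myd88, the macrophage genes Cd163 and Mrc1, the microglial genes Aif1, Cx3cr1, P2ry12, Csf1r and Itgam, and the transporter Slc11a2 were not matched, nor were any of the 23 inflammatory target genes, the 14 markers of vessel and meningeal macrophages or the 12 markers of monocytes and neutrophils. The myeloid origin of Cd14 and Slc11a1 reads therefore could not be checked against the defining markers of those cells.

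Of the receptor and signalling genes of the Toll-like pathway, 6 of 66 had a symbol. In KM vs W 4 of them were called higher and 1 lower, where 10.9% of all genes were called. By direction 5 were higher and 1 lower, with a median log2-fold change of 0.52 against 0.01 over all genes. Only 1 of the 6 was called in KM vs “0”, where it rose, and 1 in “0” vs W, where it fell. Tlr3, the receptor for double-stranded RNA, was higher in KM than in W by a log2-fold change of 0.81 (SE 0.24, adjusted p of edgeR 0.339) and higher than in “0” rats by 1.20 (SE 0.32, adjusted p 0.928). Its level was 8.52, 8.66 and 11.6 CPM in KM rats, 2.28 to 5.22 CPM in “0” rats and 3.28 to 6.63 CPM in W rats, so KM rats lay above all others, unlike Cd14, for which “0” rats matched KM. Nfkbia, the inhibitor that holds NF-kB in the cytoplasm, was lower in “0” than in W rats by a log2-fold change of −0.74 (SE 0.16, adjusted p of edgeR 0.182), and between KM and W its change was −0.42 (SE 0.18, adjusted p 0.453). The kinase subunits Chuk and Ikbkb and the inhibitory kinase Irak3 were the other genes called higher in KM vs W, with log2-fold changes of 0.69, 0.43 and 0.61. Without KM 3, only 2 of the 6 were called in KM vs W.

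Among the genes of metal handling and of the phagosome, where Slc11a1 acts, 8 of 55 had a symbol. In KM vs W 4 of the 8 were called higher and none lower, where 10.9% of all genes were called. By direction 7 were higher and 1 lower, with a median log2-fold change of 0.54. In “0” vs W 4 were called higher and none lower, where 6.69% of all genes were called. By direction 6 were higher and 2 lower, with a median of 0.43 against −0.01 over all genes. In KM vs “0” 2 were called higher and 2 lower, where 3.65% of all genes were called. Gpnmb, a glycoprotein of phagocytic cells, had 14.0 to 19.1 CPM in KM, 14.6 to 16.3 CPM in “0” and 7.52 to 10.8 CPM in W rats. It rose against W in both strains, by a log2-fold change of 0.81 (SE 0.21, adjusted p of edgeR 0.320) in KM and 0.88 (SE 0.18, adjusted p 0.157) in “0”, the same order of strains as for Cd14. Ctss, the lysosomal protease cathepsin S, was higher in “0” rats than in W by a log2-fold change of 0.63 (SE 0.14, adjusted p of edgeR 0.224), and its KM vs “0” value was −0.56 (SE 0.17, adjusted p 0.987). Slc40a1, the exporter that carries iron out of the cell, was at 2.51 to 4.18 CPM in “0”, 1.53 to 2.51 CPM in KM and 1.42 to 2.76 CPM in W rats. The fitted change of Slc40a1 was −0.83 (SE 0.27, adjusted p of edgeR 0.987) for KM vs “0”, 0.70 (SE 0.27, adjusted p 0.642) for “0” vs W and −0.13 (SE 0.33, adjusted p 0.927) for KM vs W, the first 2 being called. Without KM 3, 2 of the 8 were called in KM vs W.

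The microglial markers with a symbol were Tmem119, C1qc and Ptprc, 3 of 20. In KM vs W Tmem119 rose by a log2-fold change of 0.49 (SE 0.14, adjusted p of edgeR 0.334), Ptprc, the leukocyte antigen Cd45, rose by 1.16 (SE 0.36, adjusted p 0.360), and C1qc, a complement subunit, fell by 0.52 on the log2 scale (SE 0.13, adjusted p 0.320). None of the 3 was called by edgeR at an unadjusted p under 0.05 in KM vs “0” or in “0” vs W, nor by the Wald test of DESeq2 in those comparisons, which made 0 calls among them. Their summed level overlapped between strains, from 41.0 to 50.3 CPM in KM, 33.3 to 43.4 CPM in “0” and 35.5 to 47.9 CPM in W rats. The sum adds markers that moved in opposite directions, and singly their KM and W ranges did not overlap. Tmem119 was at 23.1 to 28.6 CPM in KM and 15.1 to 20.7 CPM in W rats. Ptprc was at 2.77 to 5.11 CPM in KM and 0.950 to 2.29 CPM in W rats. C1qc was at 15.0 to 16.6 CPM in KM and 19.4 to 24.9 CPM in W rats. Over all genes, every KM rat lay below every W rat in 6.52% and above in 5.12%. No gene of these 3 groups passed after Benjamini-Hochberg adjustment over all genes in the quasi-likelihood test of edgeR, and the smallest adjusted p was 0.157.

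**Figure D3:**
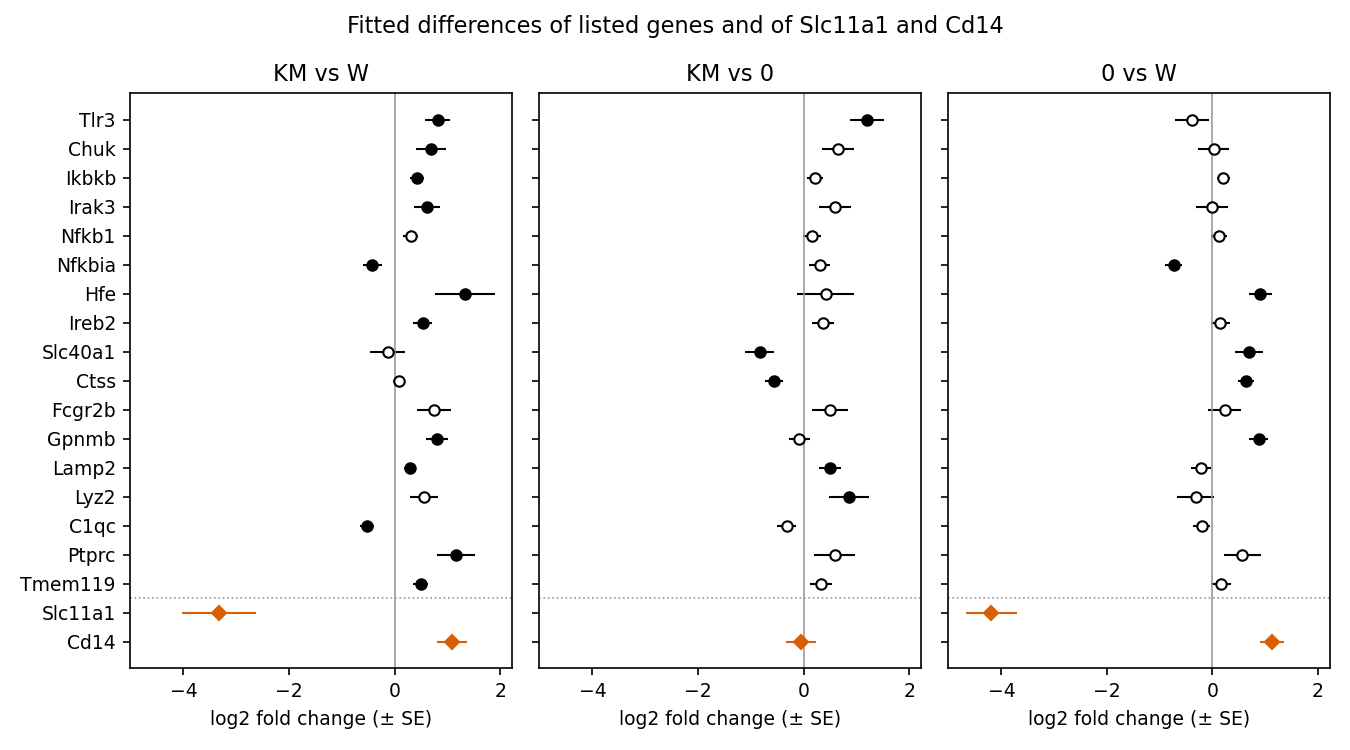
Fitted log2-fold change with its standard error for the 17 named genes of the pathway and microglial lists (circles, filled where the unadjusted p of edgeR was under 0.05) and for Slc11a1 and Cd14 (orange diamonds, untested), with one panel for each comparison. Slc11a1 lies at −3.33 and −4.19 against W, farther from 0 than any listed gene, and has no value in KM vs “0”.

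Markers of other cells were followed beside the pair, from the same table of names. The summed level of the blood genes Hba-a2 (2 identifiers), Alas2 and Ahsp was 2448 to 6040 CPM in W, 1550 to 2730 CPM in KM and 1049 to 1846 CPM in “0” rats. All 4 identifiers were called lower in “0” vs W, with a median log2-fold change of −1.65. In KM vs W all 4 were also lower, with a median of −0.95, and 2 of them were called. They thus moved in the direction of Slc11a1 but by less. Over all genes 6.69% were called in “0” vs W and 10.9% in KM vs W. The haemoglobin identifiers are near-identical copies, between which reads can be split. In KM vs “0” all 3 tested rose. Within the W rats the order differed, since W 4 had the highest blood sum and the lowest Slc11a1 level, and W 3 the lowest blood sum and the highest Slc11a1 level. The part of blood cells in the Slc11a1 difference was not tested.

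Of the 6 listed endothelial genes only 2, Kdr and Flt1, had a symbol, and both moved in the direction of Cd14. Their summed level was 141 to 153 CPM in KM, 112 to 154 CPM in “0” and 93.9 to 109 CPM in W rats. Both were called higher against W in each strain, where 10.9% of all genes were called for KM and 6.69% for “0”. Their smallest adjusted p of edgeR was 0.311 in KM vs W and 0.609 in “0” vs W. The astrocyte genes Gfap, Aldh1l1 and Gja1 had a sum of 1744 to 2428 CPM in KM, 1550 to 2869 CPM in “0” and 1323 to 1493 CPM in W rats, and the sum is mostly Gfap. Gfap rose against W in both strains, Gja1 fell in both and Aldh1l1 fell in KM, so the median log2-fold change of the 3 was −0.46 in KM vs W, against the direction of Cd14. The choroid plexus sum was 234, 275 and 9060 CPM in the KM rats, and KM 3 was also the rat with most Cd14. Of the 7 choroid plexus genes, 5 were called higher in KM vs W with KM 3, with a median log2-fold change of 2.96. Without KM 3, 2 were called higher and 1 lower, with a median of 0.22. In KM vs “0” all 7 were called higher with KM 3 and 3 without it, with medians of 3.11 and 0.70. In “0” vs W all 7 were lower, and 2 of them, Ttr and Aqp1, were called. For Cd14, the difference was present without KM 3, and the part of the other cell types was not tested.

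The genes whose pattern over the 11 rats was most like that of each member were sought by the root mean square (RMS) difference of log2 CPM, each gene being centred on its own mean, over 13694 genes of which 1759 had a symbol. For Slc11a1 the nearest were Kel (RMS 0.777), Lgals5 (0.816), Slc4a1 (0.832), Ccdc77 (0.839) and Ahsp (0.848), and no gene without a symbol was nearer than these. Kel, a blood group antigen, Slc4a1, the anion exchanger of red cells, and Ahsp, the chaperone of alpha haemoglobin, are genes of erythroid cells. Lgals5 is also a gene of red cells. All 5 nearest genes had lower levels in every KM and “0” rat than in any W rat, an order found in 0.876% of the 13694 genes after TMM scaling. They were picked for their likeness to Slc11a1 in these same rats, so this shared order follows from the choice and adds no support. Kel was at 1.43 to 2.92 CPM in W, 0.198 to 0.767 CPM in KM and 0.154 to 0.569 CPM in “0” rats. With another offset in the log2 CPM (a prior count of 0.5 in place of 2), 4 of these 5 were again among the nearest.

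For Cd14 the nearest genes were Ngfr (RMS 0.287), Eva1c (0.300), Naa50 (0.301), Prss35 (0.306) and Trim45 (0.308), and no gene without a symbol was nearer. Ngfr, the low-affinity neurotrophin receptor, was at 5.60 to 8.51 CPM in W, 12.3 to 18.0 CPM in KM and 9.78 to 16.2 CPM in “0” rats. Naa50, an N-terminal acetyltransferase, was at 3.19 to 4.85 CPM in W, 5.97 to 13.01 CPM in KM and 6.10 to 10.4 CPM in “0” rats. As for Cd14, the highest level of Ngfr, Eva1c, Naa50 and Prss35 in any rat was that of KM 3. These genes too were picked for their likeness in the same rats, so a shared order adds no support. The RMS values of Cd14 and Slc11a1 are not on a common footing, since the low counts of Slc11a1 give it a wider scatter.

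**Figure D4:**
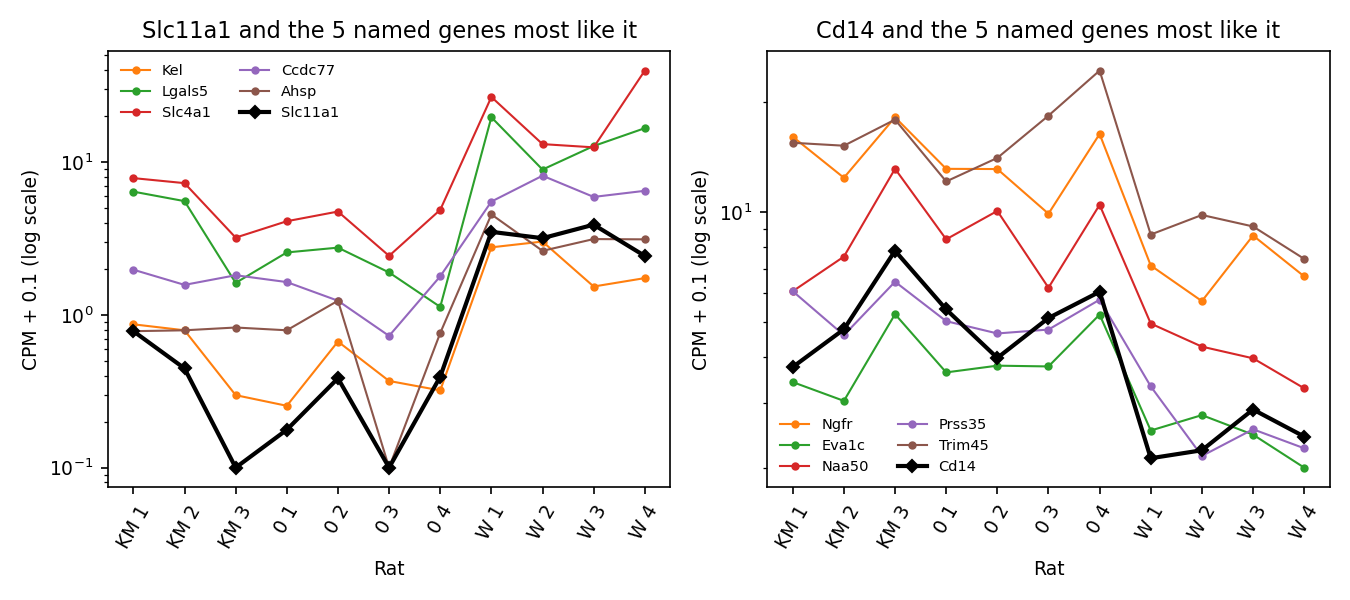
CPM plus 0.1 on a logarithmic axis in the 11 rats for Slc11a1 with its 5 nearest named genes (left) and Cd14 with its 5 nearest named genes (right). The member is drawn in black, and lines only join the points of one gene, since rats of a strain have no order. On the left all genes lie highest in the W rats, and on the right all genes lie lowest there.

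By the gene order of RefSeq on GRCr8, the nearest named gene to Slc11a1 was Igfbp5, 13 coding genes away on one side, and Cdk5r2, 15 away on the other. Igfbp5, a binding protein of insulin-like growth factors, had log2-fold changes of −0.90 (SE 0.20, adjusted p of edgeR 0.287) between KM and W and −0.68 (SE 0.23, adjusted p 0.550) between “0” and W. Of the 10 nearest named genes, 3 were called higher and 4 lower in KM vs W, and none higher and 2 lower in “0” vs W. Around Cd14, 3 of 11 identifiers were called higher and 5 lower in KM vs W, and 1 higher and 6 lower in “0” vs W. Over all genes 10.9% were called in KM vs W and 6.69% in “0” vs W. Named genes were nearly all listed for a strain difference, so these counts do not describe the regions around the pair. They also reached far, up to 79 coding genes from Slc11a1 (Carf) and 112 from Cd14 (Ttr). Pcdha4, a neuronal adhesion protein gene 9 coding genes from Cd14, fell in both comparisons, opposite to Cd14. Its identifier ENSRNOG00000047174 had a log2-fold change of −2.63 in KM vs W and −2.14 in “0” vs W. For its other identifier, ENSRNOG00000050378, the changes were smaller, at −1.28 and −0.80. Pcdha4 belongs to a gene cluster with shared exons, and the assignment of its reads to an identifier is uncertain.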

How the data were processed

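Messenger RNA of 11 rats was measured in 75-bp single-end reads, and strains and rat numbers were taken from the sample titles. According to the methods of the study, the authors trimmed reads with Trimmomatic, mapped them with STAR to Rnor_6.0 and counted them with HTSeq-count. The versions, the annotation release and the strand setting are not given in the sources used here. The authors deposited raw counts per gene, without normalization. Reads on no gene (16.5% to 22.7%) and the other summary lines were left out of library sizes.

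Counts were compared in R 4.3.3 with edgeR 4.0.16 (TMM factors, quasi-likelihood F-test, 2 strains per fit, mean CPM of at least 1, unadjusted p under 0.05, Benjamini-Hochberg values beside it). A gene whose mean in the rats compared was lower was not fitted. Log2 CPM used a prior count of 2, and intervals are exact Poisson or binomial at 95%. The fit was tested on simulated data. DESeq2 1.42.0 (size factors and Wald test), no filter, a joint fit, a replicate block and leaving out each rat were alternatives.

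Symbols came from the supplementary gene table of the study, whose fold changes and p-values were not used. The members and lists were chosen with earlier results of these data known. Named genes were the members, up to 8 listed genes per comparison with the smallest p, a fixed set of macrophage genes, the 5 most alike and the nearest neighbours. The other listed genes were named after their values were seen. Separate animals are replicates, and each has 1 library.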

Additional observations from a re-analysis of the deposited data

Results flagged for a closer look

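In groups of 4 rats, 7 of 90 gene and strain groups held a rat far from the others by Dixon's criterion (critical value 0.829). Chance flags about 1 in 20 such groups. Neither Slc11a1 nor Cd14 was among them, and the KM group of 3 was not examined. In “0” rats, Ctss reached 273.7 CPM in one animal against 172 to 188 CPM in the others, Aldh1l1 112 CPM against 61.8 to 68.9 CPM, Gja1 209 CPM against 137 to 149 CPM, and Eva1c, one of the genes most like Cd14, 5.14 CPM against 3.54 to 3.70 CPM. Nfkb1, the precursor of an NF-kB subunit, was low in one “0” rat, at 16.2 CPM against 27.8 to 28.4 CPM. In W rats, Gpnmb was at 10.8 CPM in one animal against 7.52 to 7.77 CPM in the others. Ttr, the thyroid hormone carrier of the choroid plexus, was at 43.6 CPM in one W rat against 2.43 to 5.84 CPM in the others.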

How the results depend on the processing

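The direction of Slc11a1 against W and of Cd14 against W was the same in every alternative run. With 1 rat left out it could not turn, since W rats did not overlap the others in either gene. The fold changes moved by less than the spread between rats in 28 of 28 values from other settings. With 1 rat left out this held for 36 of 37 values. The exception was Slc11a1 in KM vs W, which ranged from −4.37 to −2.64 with single rats left out and was −4.37 without KM 1. Counts of called genes were within 1.5 times in 15 of 17 values from other settings. The KM vs “0” count of 500 was 777 with no filter and 769 with the replicate block. With 1 rat left out it ranged from 280 (without “0” 3) to 921 (without KM 3) and was 295 without KM 1, while KM vs W ranged from 954 (without W 1) to 1831 and “0” vs W from 612 to 1017. Receptor and signalling genes called in KM vs W numbered 3 with the replicate block and 3 in the same rats unblocked, and ranged from 2 to 4 with 1 rat left out (2 without KM 1, KM 3 or W 1). In KM vs “0” they numbered 2 with DESeq2's Wald test, with no filter, with the block and in the same rats unblocked, and ranged from 1 to 2. Metal and phagosome genes called in KM vs W numbered 2 with the block and ranged from 2 to 4 (2 without KM 3 or W 3). In KM vs “0” they numbered 1 with the block and 2 in the same rats unblocked, and ranged from 2 to 4 (2 without “0” 1, 3 or 4), and in “0” vs W from 3 to 5. Microglial markers called in KM vs W ranged from 2 to 3, and in KM vs “0” from 0 to 1, with 1 in the same rats unblocked. The cause of these changes was not tested. The comparison of the same rats without the block and the marker lists without KM 3 were chosen after seeing the data.

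Rats share only a number: deviations of same-numbered rats correlated from −0.19 to 0.19 in KM vs W, 0.06 to 0.24 in KM vs “0” and −0.58 to 0.52 in “0” vs W. With the block Slc11a1 was at −3.54 and Cd14 at 1.08 in KM vs W. Depth limits Slc11a1 in KM and “0” rats to 0 to 8 counts, so its level there was poorly resolved between rats. The 95% Poisson intervals of KM 1 (0.294 to 1.34 CPM) and KM 3 (0 to 0.244 CPM) did not overlap. Only 1763 genes had names, which limits all statements on pathways.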
